A study of Homo sapiens with 6 samples.

Results

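The genes described here set the phosphorylation of eIF2α, the regulated subunit of translation initiation factor eIF2. They are the kinase genes EIF2AK1, EIF2AK2, EIF2AK3 and EIF2AK4 and the phosphatase regulator genes PPP1R15A and PPP1R15B. Members were found by gene symbol, and 6 of the 26391 rows of the expression table matched. Poly-A RNA was sequenced from HEK293T, a cell line derived from human embryonic kidney and expressing SV40 large T antigen. One group received a pool of 4 siRNAs against LOC550643 and the other a non-silencing siRNA, here the control. Cells were transfected at 50% confluency with Dharmafect I in both groups, and RNA was taken 48 hours later from 3 samples per group. LOC550643, now named NBDY, encodes a small protein that binds EDC4 of the mRNA decapping complex. The study compares mRNA levels with and without its knockdown, which lowers the transcript but does not remove it. The knockdown rests on a single pool set against a single control siRNA, so effects of the silencing and other effects of either reagent cannot be told apart.

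Phosphorylated eIF2α blocks eIF2B, the factor that reloads eIF2 with GTP. General translation then falls, while a few mRNAs with upstream reading frames, such as that of the transcription factor ATF4, are translated more. Each kinase answers to its own signal. HRI, encoded by EIF2AK1, responds to heme shortage and mitochondrial stress, PKR (EIF2AK2) to double-stranded RNA, PERK (EIF2AK3) to unfolded protein in the endoplasmic reticulum (ER), and GCN2 (EIF2AK4) to uncharged tRNA and stalled ribosomes. The phosphate is removed by protein phosphatase PP1, which is brought to eIF2α by GADD34 (PPP1R15A), induced by stress through ATF4, or by CReP (PPP1R15B), made constitutively. The kinases and the phosphatase complex are regulated largely at the level of protein activity, which RNA sequencing does not measure.

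Promoters are shown for the genes in which one of the searched motifs lies before or at the annotated start, so that the members can be compared by the elements they carry. The sequences are from RefSeq on GRCh38.p14, whereas the expression table uses hg19. Of the 6 members, 5 matched the promoter table by symbol, and EIF2AK1 did not. Each line gives the 250 bases before the start, with 4 more bases for EIF2AK2 so that its motif is whole, and capitals mark the motif.
PPP1R15A, chr19:48872171-48872420 (plus strand): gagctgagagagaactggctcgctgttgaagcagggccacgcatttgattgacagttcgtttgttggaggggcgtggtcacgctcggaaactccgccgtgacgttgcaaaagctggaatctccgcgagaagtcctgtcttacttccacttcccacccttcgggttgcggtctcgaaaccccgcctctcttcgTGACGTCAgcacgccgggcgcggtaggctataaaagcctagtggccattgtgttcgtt
PPP1R15B, chr1:204411818-204412067 (minus strand): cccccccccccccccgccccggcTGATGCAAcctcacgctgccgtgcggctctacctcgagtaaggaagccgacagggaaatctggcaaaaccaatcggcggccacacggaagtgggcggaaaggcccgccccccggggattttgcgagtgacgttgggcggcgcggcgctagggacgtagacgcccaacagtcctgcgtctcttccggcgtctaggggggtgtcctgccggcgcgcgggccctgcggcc
EIF2AK2, chr2:37156977-37157230 (minus strand): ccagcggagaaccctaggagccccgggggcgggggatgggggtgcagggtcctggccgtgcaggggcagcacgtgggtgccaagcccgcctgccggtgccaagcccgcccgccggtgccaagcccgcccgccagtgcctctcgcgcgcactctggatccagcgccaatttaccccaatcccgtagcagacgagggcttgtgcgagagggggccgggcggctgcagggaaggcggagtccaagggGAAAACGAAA
The search covered both strands of 300 bases per gene, 250 before and 50 after the start. The amino acid response element, written TGATGNAA, which factors of the ATF4 group bind, was found in PPP1R15B at 227 bases before the start and in no other of the 5. It lies in 3.62% of the 35116 promoters in the table. The interferon-stimulated response element, which is GAAA repeated across a gap of 2 bases, was found in EIF2AK2, beginning 6 bases before the start, and lies in 3.57% of promoters. The cyclic AMP response element TGACGTCA, searched after the sequences had been seen, was found in PPP1R15A, beginning 58 bases before the start, and lies in 1.85% of promoters. The windows of EIF2AK3 and EIF2AK4 held none of these letters.

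Facts of the whole series that bear on these genes are as follows. The targeted gene, listed as LINC01420, was at 5.74 ± 0.292 CPM (the read count relative to the scaled library total) in LOC550643 siRNA libraries and 52.9 ± 2.88 CPM in control libraries (SD, n = 3 each). Depth was 8604236 to 35249993 read pairs in LOC550643 siRNA libraries and 32309964 to 36082404 in control libraries, as inferred from the values. LOC550643 siRNA replicate 3 was the shallowest of the 6, and control replicate 2 differed most from its own group. All 9 markers chosen for HEK293 cells were detected in every library, and 2 of them were called higher. KRT18 was at 104.2 ± 6.07 CPM in LOC550643 siRNA libraries and 73.5 ± 6.78 CPM in control libraries (log2 0.51, limma adjusted p = 0.000727), and EN2 was at 103.8 ± 4.30 CPM in LOC550643 siRNA libraries and 88.9 ± 2.63 CPM in control libraries (log2 0.22, limma adjusted p = 0.0227). The other 7 did not pass. The 12 markers of other cell types summed to 3.45 to 4.16 CPM in LOC550643 siRNA libraries and 4.80 to 6.32 CPM in control libraries. HBB and INS were at 0 in all libraries, and PTPRC, CD3E and PECAM1 were at 0 in all LOC550643 siRNA libraries. Across the transcriptome 5793 of 16245 tested genes (35.7%) passed the test at an adjusted p under 0.05, 17.5% higher and 18.2% lower with the pool.

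Of the 6 members, all of which were measured well above the filter on low values, 2 rose and 0 fell after LOC550643 siRNA. These were PPP1R15A, by 1.61-fold, and EIF2AK1, by 1.21-fold. That is 2 of 6 beside a background of 17.5% of all tested genes called higher. With the same threshold edgeR and DESeq2 also called 0 members lower, and EIF2AK3 had an unadjusted limma p of 0.032. The groups did not overlap in CPM for PPP1R15A, EIF2AK1 and EIF2AK3, against 48.5% of all tested genes. The higher groups were those of PPP1R15A and EIF2AK1 (23.7% of tested genes lay apart in that direction) and the lower that of EIF2AK3 (24.9%). In such bulk samples fewer cells with a transcript and less of it per cell cannot be told apart. No member passed a log2 fold change of 1, the size the authors asked for in their own calls.

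**Figure D1:**
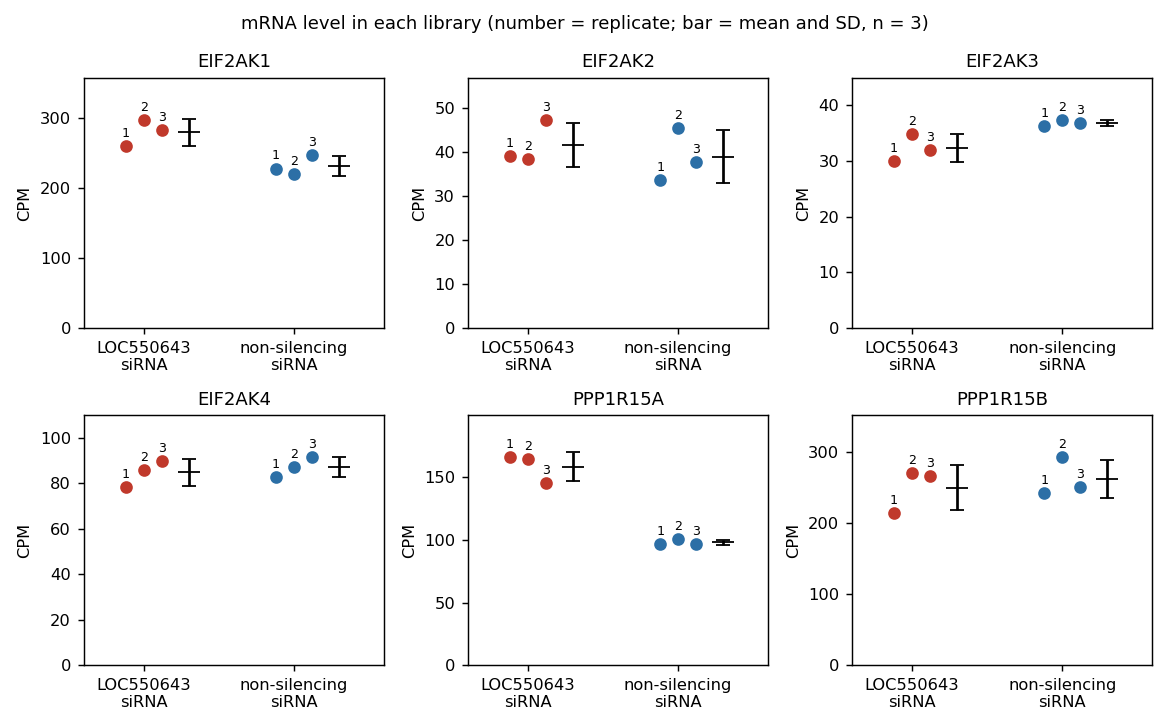
mRNA level (y axis, CPM, from 0) of each gene in the 3 LOC550643 siRNA libraries (red) and the 3 control libraries (blue), with the mean and SD of each group as bars and the replicate number over each point. PPP1R15A stood at 145.2 CPM or more in every LOC550643 siRNA library and at 100.5 CPM or less in every control library, while the groups of EIF2AK2, EIF2AK4 and PPP1R15B overlapped.

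PPP1R15A encodes GADD34, the inducible subunit that brings PP1 to eIF2α and so reverses the work of the kinases. The gene has 3 exons on the plus strand of chromosome 19 at 49375649 to 49379319 (hg19), and its coding sequence takes up 2022 of the 2350 exonic bases of its main GENCODE transcript. It was at 166.3, 164.6 and 145.2 CPM in LOC550643 siRNA replicates 1 to 3, against 97.2, 100.5 and 96.9 CPM in control replicates 1 to 3. All LOC550643 siRNA libraries lay above all control libraries, and the lowest of them was the shallow replicate 3. The log2 fold change was 0.69 (SE 0.072, 95% interval 0.531 to 0.849, limma adjusted p = 4.73e-05), which ranked 321 of 16245 tested genes by p and 344 of the 2837 genes called higher by size. With each library left out in turn the log2 fold change ran between 0.655 and 0.753. In the authors' deposited table its log2 fold change is 0.69 and its adjusted p 7.25e-12. The counts behind these values were 1222 read pairs in LOC550643 siRNA replicate 3 and at least 3218 in every other library.

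PPP1R15B encodes CReP, the constitutive partner of PP1 for eIF2α. It has 2 exons on the minus strand of chromosome 1 at 204372492 to 204380945 (hg19). It was at 213.7, 270.3 and 265.4 CPM in LOC550643 siRNA libraries, against 242.5, 292.7 and 250.8 CPM in control libraries. The groups overlapped, with LOC550643 siRNA replicate 1 lowest and control replicate 2 highest of the 6. The log2 fold change of -0.07 did not pass (SE 0.103, limma adjusted p = 0.616). Its 95% interval ran from -0.297 to 0.153, between 0.814 and 1.11 of the control level, so a rise of the size seen in PPP1R15A lies outside it. Without LOC550643 siRNA replicate 1 the value was 0.036, still not past the test (limma adjusted p = 0.795).

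The ratio of the 2 regulators was apart between the groups. Per length, PPP1R15A over PPP1R15B was 1.73, 1.35 and 1.21 in LOC550643 siRNA libraries, against 0.888, 0.761 and 0.856 in control libraries. PPP1R15A thus outnumbered PPP1R15B per length with the pool in all 3 libraries, and was below it in all 3 control libraries. The highest ratio, that of LOC550643 siRNA replicate 1, combined the highest PPP1R15A value with the lowest PPP1R15B value. Summed per length, the pair stood at 114.1 ± 5.53 CPM per kb in LOC550643 siRNA libraries and 91.0 ± 5.92 CPM per kb in control libraries (SD, n = 3 each). These sums and ratios are a description without a test.

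EIF2AK1 encodes HRI, the kinase of heme shortage that also receives signals of mitochondrial stress. It has 15 exons on the minus strand of chromosome 7 at 6061878 to 6098860 (hg19). It was at 259.4, 297.7 and 282.4 CPM in LOC550643 siRNA libraries, against 227.8, 219.4 and 247.1 CPM in control libraries. The groups did not overlap, but LOC550643 siRNA replicate 1 and control replicate 3 stood close. The log2 fold change was 0.27 (SE 0.077, 95% interval 0.104 to 0.443, limma adjusted p = 0.0173). In the authors' deposited table the values are 0.27 and an adjusted p of 0.0229. The call was lost without LOC550643 siRNA replicate 2 (limma adjusted p = 0.0808), LOC550643 siRNA replicate 3 (0.0552) or control replicate 1 (0.0598), and with library totals in place of TMM scaling (0.0555).

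The end of EIF2AK1 overlaps that of AIMP2, a scaffold of the tRNA synthetase complex, on the opposite strand. The header of the table shows no strand option in the counting, so reads from the 532 shared exonic bases (chromosome 7, 6062934 to 6063465, hg19) cannot be told apart. That stretch holds 0 coding bases of EIF2AK1. AIMP2 was at 66.8, 58.5 and 55.8 CPM in LOC550643 siRNA libraries and 52.5, 41.7 and 51.7 CPM in control libraries, and it passed the test too (log2 0.32, limma adjusted p = 0.031). The part of AIMP2 in the EIF2AK1 result was not tested. ANKRD61, also within the span of EIF2AK1, shares 0 exonic bases with it and was at 2.31 CPM or less in every library.

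EIF2AK2 encodes PKR, the kinase that double-stranded RNA activates and interferon induces. It lies on the minus strand of chromosome 2 at 37332284 to 37384190 (hg19) and has 17 exons. It was at 39.0, 38.3 and 47.3 CPM in LOC550643 siRNA libraries, against 33.5, 45.4 and 37.8 CPM in control libraries. The groups overlapped, and LOC550643 siRNA replicate 3 and control replicate 2 each stood above the others of their group. On the log2 scale the difference was 0.10 (SE 0.116; adjusted p = 0.532 by limma), with a 95% interval of -0.155 to 0.356, and it was -0.002 without control replicate 1 (limma adjusted p = 0.992). In LOC550643 siRNA replicate 3 the gene rested on 398 read pairs, for a counting error of 5.0%, and in every other library that error was at most 3.0%.

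EIF2AK3 encodes PERK, the ER transmembrane kinase. It lies on the minus strand of chromosome 2 at 88856259 to 88927094 (hg19) and also has 17 exons. It was at 30.0, 34.9 and 32.0 CPM in LOC550643 siRNA libraries, against 36.3, 37.4 and 36.8 CPM in control libraries. All LOC550643 siRNA libraries were below all control libraries, whose values lay close together. The log2 fold change of -0.19 did not pass (SE 0.079, 95% interval -0.365 to -0.020, limma adjusted p = 0.0781). It passed with library totals (log2 -0.27, limma adjusted p = 0.0179) and with upper-quartile scaling (-0.22, adjusted p = 0.0445). The noncoding gene LOC101928371 runs across it on the opposite strand and shares 781 exonic bases, all within the coding sequence of EIF2AK3. LOC101928371 averaged 6.96 ± 0.349 CPM in LOC550643 siRNA libraries and 8.50 ± 0.268 CPM in control libraries (SD, n = 3 each; log2 -0.29, limma adjusted p = 0.0513), and its part in the EIF2AK3 value was not tested.

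EIF2AK4 encodes GCN2, the kinase of amino acid shortage. It has 39 exons on the plus strand of chromosome 15 at 40226325 to 40327797 (hg19). It was at 78.4, 85.9 and 89.9 CPM in LOC550643 siRNA libraries, against 82.6, 87.3 and 91.5 CPM in control libraries. The groups overlapped over most of their range. The difference on the log2 scale was -0.04 (SE 0.075; adjusted p = 0.70 by limma), with a 95% interval of -0.206 to 0.124, and it was 0.013 without LOC550643 siRNA replicate 1 (limma adjusted p = 0.911).

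**Figure D2:**
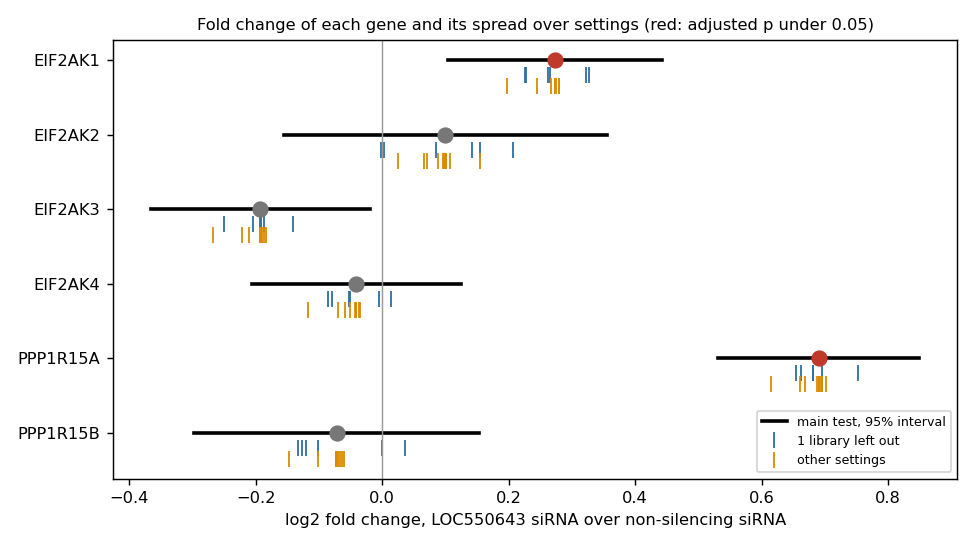
Log2 fold change of LOC550643 siRNA over control siRNA (x axis) for each gene (rows), with the 95% interval of the limma fit as a black bar, fits with 1 library left out as blue ticks and other settings as orange ticks; red points passed an adjusted p of 0.05. PPP1R15A stayed above 0.61 in every fit drawn, EIF2AK1 between 0.198 and 0.327, and the ticks of EIF2AK2, EIF2AK4 and PPP1R15B reach both sides of 0.

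Levels were compared between genes per kb of the exon length listed in the table. In LOC550643 siRNA libraries the order was PPP1R15A at 66.7 ± 4.91, EIF2AK1 at 62.9 ± 4.34, PPP1R15B at 47.4 ± 5.95, EIF2AK4 at 15.4 ± 1.06, EIF2AK2 at 9.61 ± 1.16 and EIF2AK3 at 6.97 ± 0.53 CPM per kb (SD, n = 3). PPP1R15A and EIF2AK1 overlapped there, and the other neighbours in the order did not. In control libraries the order was EIF2AK1 at 52.0 ± 3.19, PPP1R15B at 49.7 ± 5.10, PPP1R15A at 41.3 ± 0.839, EIF2AK4 at 15.9 ± 0.807, EIF2AK2 at 8.99 ± 1.39 and EIF2AK3 at 7.96 ± 0.121 CPM per kb. In these libraries EIF2AK1 overlapped PPP1R15B, and EIF2AK2 overlapped EIF2AK3. PPP1R15A was thus first with the pool and behind EIF2AK1 and PPP1R15B in the control libraries. The listed length of EIF2AK2 is 4326 bases, while its main GENCODE transcript has 9975 exonic bases, so its place per length depends on the annotation.

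**Figure D3:**
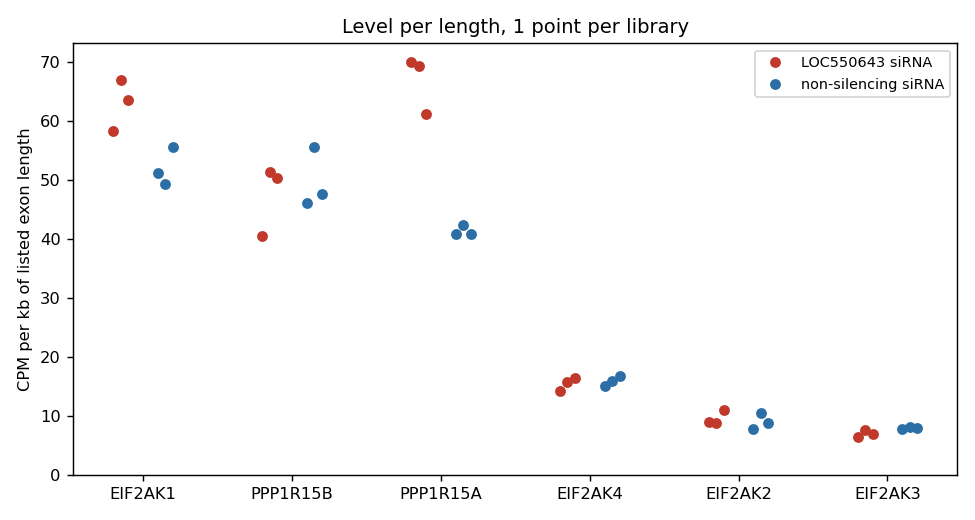
Level per length (y axis, CPM per kb of listed exon length, from 0) of each gene, with 1 point per library, LOC550643 siRNA in red and control siRNA in blue. EIF2AK1, PPP1R15B and PPP1R15A all stand at 40.53 CPM per kb or more in every library, and EIF2AK4, EIF2AK2 and EIF2AK3 at 16.7 CPM per kb or less.

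HRI mRNA made up most of the kinase mRNA in every library. Per length, EIF2AK1 held 66.2%, 67.6% and 65.0% of the summed level of the 4 kinases in LOC550643 siRNA libraries, against 62.6%, 58.9% and 62.5% in control libraries. EIF2AK3 held 7.4%, 7.6% and 7.1% in LOC550643 siRNA libraries, against 9.6%, 9.6% and 8.9% in control libraries. EIF2AK4 held 16.2 ± 0.451% in LOC550643 siRNA libraries and 18.7 ± 0.30% in control libraries, and EIF2AK2 held 10.1 ± 1.10% in LOC550643 siRNA libraries and 10.6 ± 1.65% in control libraries (SD, n = 3 each). These shares sum to the whole, so a higher share of one lowers the others. The summed kinase level itself was 88.1, 99.0 and 97.7 CPM per kb in LOC550643 siRNA libraries, against 81.8, 83.8 and 88.9 CPM per kb in control libraries, and the groups overlapped.

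The ratio of the regulators' summed level to that of the kinases was 1.25, 1.22 and 1.14 in LOC550643 siRNA libraries, against 1.06, 1.17 and 0.994 in control libraries. These groups overlapped, since control replicate 2 stood above LOC550643 siRNA replicate 3. The share of EIF2AK2 overlapped between the groups as well.

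**Figure D4:**
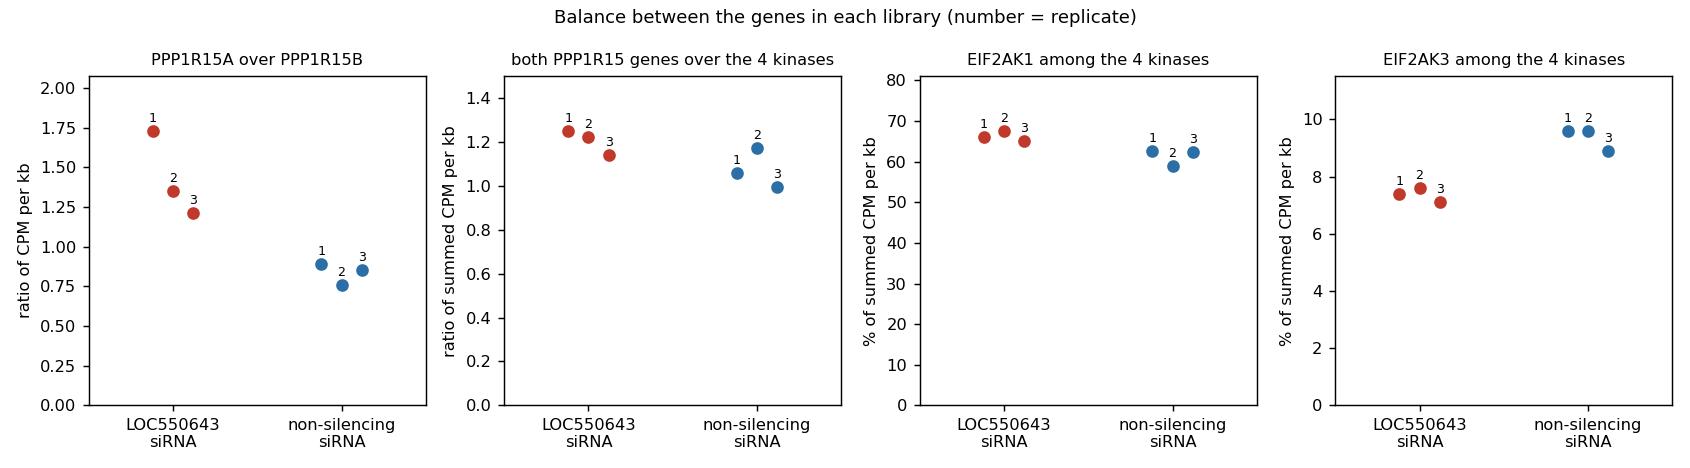
Balance between the genes in each library, with replicate numbers over the points and y axes from 0, for LOC550643 siRNA (red) and control siRNA (blue): from the left, PPP1R15A over PPP1R15B, both PPP1R15 genes over the 4 kinases (ratios of CPM per kb), and the percent of the summed kinase level held by EIF2AK1 and by EIF2AK3. The groups overlap in the ratio of regulators to kinases and are apart in the other panels, with PPP1R15A over PPP1R15B at 1.21 or more against 0.888 or less, EIF2AK1 at 65.0% or more against 62.6% or less, and EIF2AK3 at 7.6% or less against 8.9% or more.

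For each member, 3 genes whose log2 level across the 6 libraries was most like its own were looked up among genes of at least 10 CPM, by Pearson's correlation. For PPP1R15A these were NAB2 (r = 0.9992), MKL1 (0.9989) and TCF3 (0.9988), and for EIF2AK1 GOLGA5 (0.9982), MCM4 (0.9975) and CAP1 (0.9973). For EIF2AK3 they included GPC2 (r = 0.9974) and BRD8 (0.9917). They were for EIF2AK2 ATR (0.9906), SHPRH (0.9885) and ATG14 (0.9871), for EIF2AK4 ABHD17B (0.9878), IREB2 (0.9869) and LIN28B (0.9832), and for PPP1R15B RBBP6 (0.9786), EXOC8 (0.9699) and ZNF397 (0.9659). These values are from the highest of 11245 genes over 6 libraries that fall into 2 groups and share their scaling, so they describe likeness and carry no test.

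Among the 8 tested subunit genes of eIF2 and eIF2B, 2 rose (EIF2S1 and EIF2B2), 1 fell (EIF2B3) and 5 did not pass. These are 25.0% higher and 12.5% lower, beside 17.5% and 18.2% of all tested genes. EIF2S1, which encodes eIF2α itself, was at 122.7 ± 2.78 CPM in LOC550643 siRNA libraries and 99.8 ± 10.0 CPM in control libraries (log2 0.30, limma adjusted p = 0.0117). EIF5 and CDC123 are not subunits but act on eIF2. EIF5, its GTPase activator, rose by log2 0.33 (limma adjusted p = 0.00644). CDC123, which assembles the eIF2 complex, was at 61.6, 59.8 and 59.7 CPM in LOC550643 siRNA libraries, against 117.0, 103.1 and 123.4 CPM in control libraries (log2 -0.92, limma adjusted p = 1.25e-05). This change was larger in size than that of any member, and the groups did not overlap.

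Of the genes of the PP1 catalytic subunit, the partner of both regulators, 1 of 3 passed: PPP1CB rose by log2 0.24 (limma adjusted p = 0.015), while PPP1CA was at log2 0.04 (adjusted p = 0.722) and PPP1CC at -0.02 (adjusted p = 0.883). Of 31 other tested PP1 regulatory subunit genes 8 rose and 8 fell (25.8% each way, beside 17.5% higher and 18.2% lower among all tested genes; median log2 0.09). PPP1R9B, the spine protein spinophilin, was at 192.6 ± 7.80 CPM in LOC550643 siRNA libraries and 95.9 ± 3.63 CPM in control libraries (SD, n = 3 each; log2 1.00, limma adjusted p = 3.19e-06). PPP1R14B, an inhibitor of PP1, rose by log2 0.85 (limma adjusted p = 1.4e-05), and PPP1R3E, a glycogen-targeting subunit, fell by 0.91 (adjusted p = 3.55e-05). The GADD45 genes are growth-arrest genes that share the induction by DNA damage for which GADD34 was named. Of these, 2 of 2 tested rose, beside 17.5% of all tested genes. GADD45A was at log2 0.47 (limma adjusted p = 0.000371) and GADD45B at 0.56 (adjusted p = 0.00514). GADD45A also counts in the list of ATF4 targets below. GADD45G was at 0.108 CPM or less in every library and was not tested.

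Genes that act on each kinase were taken next, and their shares stand beside the same 17.5% higher and 18.2% lower. The lists were chosen with earlier results of these data known, so these shares are not an independent comparison. A gene that belongs to 2 lists, such as DNAJC3 or ADAR, counts in each. Of 6 regulators of HRI, 4 rose and 1 fell (66.7% and 16.7%, median log2 0.28), but only 2 rose without LOC550643 siRNA replicate 3, without control replicate 2 or with library totals. All 4 that rose encode general chaperones or a cochaperone: HSP90AA1, HSP90AB1 (log2 0.30), HSPA8 (0.26) and CDC37. The share thus describes mostly chaperone genes. HSP90AA1, the chaperone that holds HRI with its cochaperone CDC37, was at 1461, 2018 and 1987 CPM in LOC550643 siRNA libraries, against 933.5, 876.3 and 1005 CPM in control libraries (log2 0.94, limma adjusted p = 0.000196). CDC37 rose by log2 0.34 (limma adjusted p = 0.00226). KIAA0141, now DELE1, which relays mitochondrial stress to HRI, fell by 0.23 (limma adjusted p = 0.0259). The remaining gene of this list, OMA1, was at log2 0.03 and did not pass. Of 16 genes of heme synthesis, transport and breakdown 5 rose and 2 fell (31.2% higher and 12.5% lower, the second under the 18.2% of all tested genes; median log2 0.08). FECH, the last enzyme of heme synthesis, was at 54.9 ± 4.22 CPM in LOC550643 siRNA libraries and 38.8 ± 1.89 CPM in control libraries (log2 0.50, limma adjusted p = 0.000676). The 2 that fell were HMOX1 and FLVCR2. HMOX1, which breaks heme down, was at 27.3 ± 1.38 CPM in LOC550643 siRNA libraries and 38.2 ± 0.755 CPM in control libraries (log2 -0.49, limma adjusted p = 0.000533). The transporter gene FLVCR2 fell by 0.71 on the log2 scale (limma adjusted p = 0.000426).

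Of 9 regulators of PKR 1 rose and 8 did not pass (11.1% higher, under the 17.5% of all tested genes; median log2 0.13). The gene that rose was DUS2, a tRNA dihydrouridine synthase that binds PKR, at 38.9 ± 2.56 CPM in LOC550643 siRNA libraries and 27.6 ± 0.714 CPM in control libraries (log2 0.50, limma adjusted p = 0.000607). DNAJC3, a chaperone that inhibits PKR and PERK, was at log2 0.16 (limma adjusted p = 0.0949) and the RNA editing enzyme ADAR at 0.15 (adjusted p = 0.154). EIF2AK2, as an interferon-induced gene, belongs to the group of double-stranded RNA sensing and the interferon response. Of 36 tested genes of that group 1 rose and 18 fell (median log2 -0.33). These are 2.78% higher and 50.0% lower, beside 17.5% and 18.2% of all tested genes. TAPBP was at 37.1 ± 3.18 CPM in LOC550643 siRNA libraries and 79.2 ± 1.35 CPM in control libraries (log2 -1.10, limma adjusted p = 4.54e-06), TAP1 fell by 1.25 (limma adjusted p = 1.02e-05), and PSMB9 fell by 2.26 (limma adjusted p = 1.79e-05). All 3 serve the supply or loading of peptides for MHC class I, and their rows have 5 to 8 genome positions, so reads may be shared among copies. EIF2AK2 itself, at log2 0.10, did not pass in either direction.

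Of 11 regulators of GCN2 3 rose and 1 fell (27.3% higher and 9.09% lower, beside 17.5% and 18.2% of all tested genes; median log2 0.12). The ABC proteins ABCF3 and ABCF1 rose by log2 0.43 and 0.25 (limma adjusted p = 0.00239 and 0.0256); ABCF1 has 7 genome positions. RWDD1, an RWD-domain protein whose yeast relative binds the GCN2 activator Gcn1, was at 61.5 ± 1.46 CPM in LOC550643 siRNA libraries and 78.6 ± 9.12 CPM in control libraries (log2 -0.35, limma adjusted p = 0.00958). Of 30 genes of the ER stress response around PERK 14 rose and 3 fell (46.7% higher and 10.0% lower, beside 17.5% and 18.2% of all tested genes; median log2 0.19). CALR, a calcium-binding ER chaperone, was at 945.8 ± 101.0 CPM in LOC550643 siRNA libraries and 502.2 ± 22.8 CPM in control libraries (log2 0.91, limma adjusted p = 3.56e-05). EDEM1 and SEL1L, both of ER-associated degradation, fell by 1.12 and 0.80 (limma adjusted p = 1.03e-05 and 2.08e-05).

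Downstream of eIF2α, 33 of 48 genes of ATF4 and its targets rose and 3 fell (median log2 0.34). These are 68.8% higher and 6.25% lower, beside 17.5% and 18.2% of all tested genes. ATF4 itself was at log2 -0.06 and did not pass. PPP1R15A, itself a target of ATF4, was left out of this list, which was chosen with earlier results of these data known. ATF3, a stress-induced transcription factor, was at 170.9 ± 4.91 CPM in LOC550643 siRNA libraries and 96.6 ± 3.73 CPM in control libraries (log2 0.82, limma adjusted p = 9.23e-06), a larger log2 value than that of PPP1R15A. GPT2, a mitochondrial alanine aminotransferase, rose by log2 0.79 (limma adjusted p = 9.86e-06). SARS, the cytosolic seryl-tRNA synthetase, fell by 1.27 (limma adjusted p = 3.45e-05). The count of genes that rose was 31 without LOC550643 siRNA replicate 3, 31 without control replicate 2 and 28 with library totals.

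**Figure D5:**
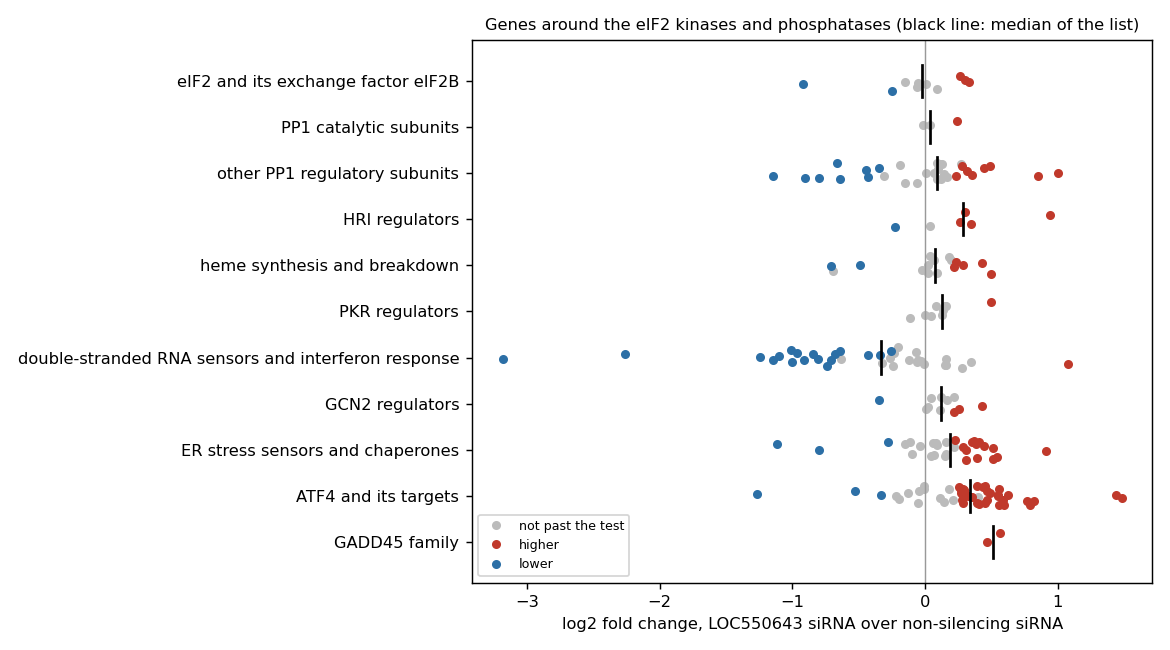
Log2 fold change of LOC550643 siRNA over control siRNA (x axis) of each tested gene of 11 lists (rows), with genes past an adjusted p of 0.05 in red (higher) and blue (lower), the rest in grey, and the median of each list as a black line; vertical scatter within a row carries no value. The ATF4 list has its median at 0.335 and the interferon list at -0.332, while the median of the eIF2 and eIF2B list, which here also holds EIF5 and CDC123, is at -0.021.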

How the data were processed

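Per the labels' protocols, poly-A RNA of 6 samples went into dUTP libraries that were sequenced from both ends for 75 bases, with CASAVA 1.8.2, STAR 2.4.0k on hg19 and edgeR 3.6.8. The authors counted exonic reads with HOMER, per the file headers, merging transcripts of a gene, with no strand option shown. The deposited values per library are a signal, scaled by the authors to a common total. They are whole multiples of 1 step per library (100.0% of values within 0.1 step), read here as 1 read end. The deposited log2 fold changes and adjusted p-values of the authors are quoted only where named.

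Of 26391 rows, 16245 passed the edgeR expression filter. It asks for a CPM equal to 10 read pairs at the median depth in at least 3 libraries. A gene can thus pass with fewer read pairs in the shallow LOC550643 siRNA replicate 3. The main test was limma 3.58.1 (trended empirical Bayes, two-sided). It ran on TMM-scaled log2 values with a pseudocount of 1 deposited unit (0.034 CPM), LOC550643 siRNA over control, with Benjamini-Hochberg adjustment over all genes tested; fold changes on this scale understate those of low genes. CPM are values over the TMM-scaled total. Alternatives used edgeR 4.0.16 and DESeq2 1.42.0 on recovered reads, other scalings, filters and pseudocounts, thinned libraries, a replicate block and each library left out. On the recovered reads edgeR called 2858 genes higher and 2992 lower. R 4.3.3 and Python 3.11.15 were used. The tests were also run on simulated data, with fewer changed genes than were called here and larger changes than that of EIF2AK1. No result here rests on that run.

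Whether replicates were separate cultures is not stated beyond their number, so the spread behind the p-values may be technical; counting errors cover counting only. Members and gene lists were chosen with earlier results of these data known. Genes named are the members, the 3 with the smallest p of each list, all of lists of up to 3, and the 3 most similar to each member, of which 1 is not reported here. AIMP2, ANKRD61 and LOC101928371 were added because they overlap members. A few more genes of the eIF2, HRI and ATF4 lists are named beside the counts of those lists. Exons are those of GENCODE release 44 on GRCh37, the assembly of hg19; promoters are from RefSeq on GRCh38.p14.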

Additional observations from a re-analysis of the deposited data

How the results depend on the processing

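With an adjusted p of 0.01 in place of 0.05, 1770 genes were called higher and 1751 lower. In fits with 1 library left out, 2053 to 2626 genes were called higher and 2243 to 2879 lower. With library totals in place of TMM scaling, 34.4% of called genes were higher, against 49.0%. PPP1R15A passed in all settings and in all fits with 1 library left out, at log2 0.614 (library totals) to 0.753. EIF2AK1 ran from 0.225 to 0.327 with 1 library left out, without a call in 3 of these 6 fits, and stood at 0.198 with library totals (adjusted p = 0.0555). EIF2AK3 passed with upper-quartile scaling (-0.2215) and library totals (-0.2682), and ran from -0.2495 to -0.141 with 1 library left out. EIF2AK2 ran from -0.0018 to 0.206, EIF2AK4 from -0.085 to 0.013 and PPP1R15B from -0.133 to 0.036 in those fits, and none of these 3 passed in any setting. Of the counts rerun after seeing the data, that of HRI regulators called higher was 2 with library totals, and 2 without LOC550643 siRNA replicate 3 or control replicate 2, against 4 with all libraries. With library totals the median log2 fold change of all tested genes was -0.095, against -0.02 with TMM scaling. The log2 values of the members moved down with that common shift. The cause of the changes with 1 library left out was not tested.

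The labels link samples across the groups by replicate number alone. Deviations of same-numbered samples from their group means correlated with r of 0.058, -0.283 and -0.12. Each mean rests on only 3 libraries, so these values cannot decide whether the samples were paired. When the replicate number was a block, limma called 2671 genes higher and 2718 lower, and EIF2AK1 (0.274, adjusted p = 0.0283) and PPP1R15A (0.69, adjusted p = 0.000448) kept their calls. The block changed no call of the other 4 members. Depth limits EIF2AK3 most, with 269 read pairs in LOC550643 siRNA replicate 3, a counting error of 6.1%.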
